A study of Arabidopsis thaliana with 6 samples.

Results

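In 6 RNA-seq libraries of Arabidopsis thaliana root-tip protoplasts, the S gate was set against the mean of the G1 and G2M gates, to find the genes that peak or dip in S rather than moving steadily with DNA content. The members are all nuclear genes that passed a low-count filter, 25089 of the 32548 nuclear genes and of 32833 genes in all. The filter kept a gene with at least 0.215 CPM (counts scaled to a fixed library total) in at least 2 libraries, and the genes nearest to that limit had a second-highest value of 0.216 CPM (kept) and 0.211 CPM (left out). Each gate has 2 libraries, so 2 S libraries stand against 4 others.

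All 3 gates came from one genotype, given as Col0/H2B-RFP/CDT1a-GFP, which is the Col-0 strain with fluorescent reporters fused to a core histone and to the origin licensing factor CDT1A. Seedlings were 7 days old when root tips were turned into protoplasts, cells freed from their walls, and sorted by flow cytometry. The G1 gate held cells of 2n DNA content, the S gate cells between 2n and 4n, and the G2M gate 4n cells. No treatment or mutant distinguishes the gates. Cycling cells and cells that left the cycle at a given DNA content fall in the same gate, which also mixes the cell types of the root tip. The levels measured for CDT1A and H2B may include reads of the reporters. In these bulk samples fewer cells that express a gene and less RNA per cell cannot be told apart. The labels do not say whether the libraries of a gate came from separate plants, so p-values measure the spread between libraries, which may be technical.

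In plant cells, replication origins are licensed in G1 by the origin recognition complex, CDC6, CDT1 and the MCM helicase, and fire in S phase. Genes of licensing and replication are known targets of E2F transcription factors, which the retinoblastoma-related protein RBR1 holds back. Cyclins of the B type and CDKB kinases act in G2 and mitosis, and many of their genes carry the MSA element read by MYB3R factors.

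Total counts per library ran from 13114711 to 208406910, and both ends of that range are S libraries. The S libraries were less alike than those of the other gates, with a correlation over genes of 0.932 against 0.973 in G1 and 0.966 in G2M. S replicate 2, the shallowest library, had a correlation of 0.946 with a G2M library, above its value with S replicate 1. Many calls of named genes that were lost without an S library are marked beside them, but not all. Those not marked include PARP2, RAD54, LOX3, RPS15A, RPS15AD, GSTU4 and GSTU6 without S replicate 1. Without S replicate 2 they include VIM3, TCH4, RHL41 and GSTU22. Stem cell niche markers were read in every gate, with PLT1 between 43.2 and 70.6 CPM over the 6 libraries, while WOX5, which marks the few cells of the quiescent centre, stayed at or below 0.542 CPM.

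The contrast called 1276 genes higher in S (5.09% of 25089) and 545 lower (2.17%), at an adjusted p under 0.05 by edgeR's quasi-likelihood test with Benjamini-Hochberg adjustment. The median contrast over all nuclear genes was 0.13 (log2), so that differences of lists are read against this shift. A gene that climbs from G1 to S and then stays level also passes the contrast. An S peak was therefore defined as a gene called higher with both S libraries above the other 4, which held for 534 genes (2.13%), and an S dip as a gene called lower with both S libraries below the other 4, which held for 451 (1.8%). Peaks were 41.8% of the genes called higher and dips 82.8% of those called lower.

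Most genes called higher in S passed as higher against a single other gate. Of the 1276 genes, 528 passed as higher than G1 but not against G2M, and 499 as higher than G2M but not against G1. Of these, 209 and 193 were S peaks, so a test not passed does not place S level with that gate. Another 45 were above G1 and below G2M, 72 were below G1 and above G2M, 130 passed as higher against both gates and 2 passed against neither. Of the 545 genes called lower, 218 passed as lower against both gates, 209 against G1 only and 113 against G2M only. A further 5 were below G1 and above G2M. Over all nuclear genes the pairwise tests called 14.1% higher and 7.21% lower against G1, and 10.2% higher and 9.56% lower against G2M. These pairwise tests share the S libraries.

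**Figure D1:**
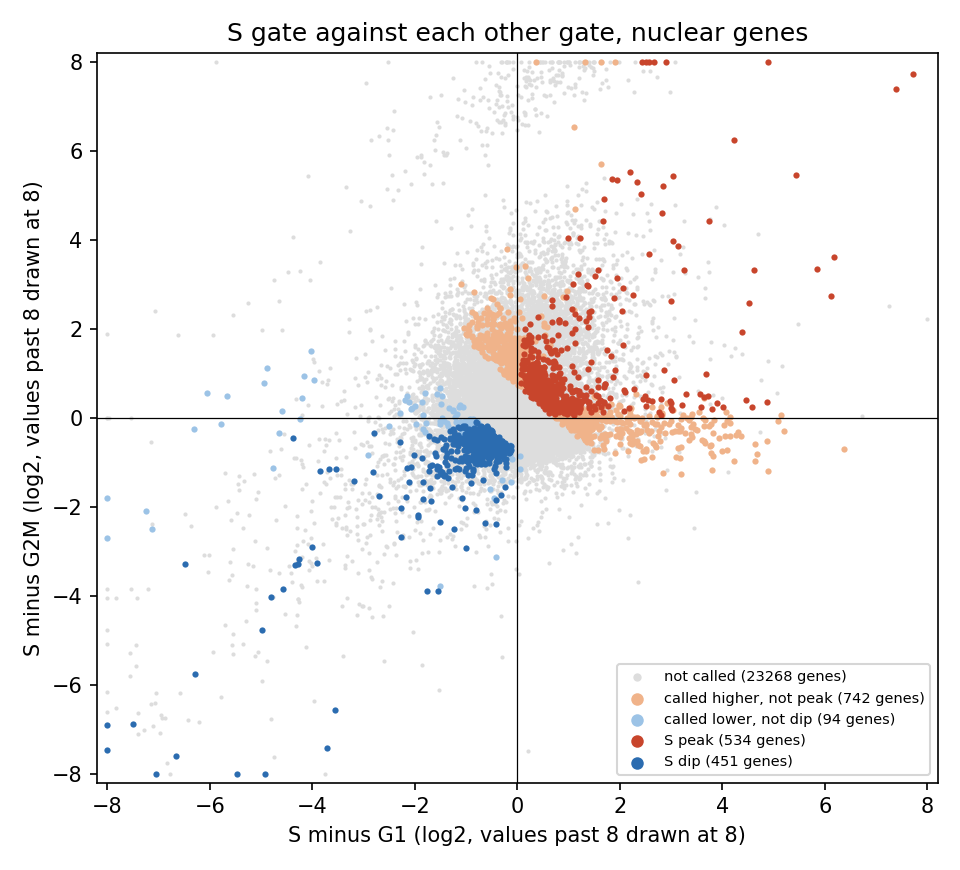
Log2 difference of S from G1 (horizontal axis) and from G2M (vertical axis) for each of 25089 nuclear genes, with values past 8 drawn at 8. The 534 S peak genes lie at the upper right and the 451 S dip genes at the lower left, and many of the 742 other genes called higher lie along an axis, near 0 against one gate.

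Scaling and gene length moved these counts. Higher calls were 70.1% of all calls with TMM factors, 59.7% with DESeq2 size factors and 52.1% with upper-quartile factors. S peak genes were long, with a median exon length of 2226 bases (quartiles 1806 and 2905), against 1626 over all nuclear genes tested (1095 and 2244) and 1142 in S dip genes (810 and 1747). Median GC content was 41.4% in peaks, 40.6% in dips and 41.1% in all genes tested. With offsets for GC content and length in the fit, an alternative chosen after seeing the data, 123 peaks and 223 dips were called, of which 117 and 198 were among the 534 and 451. The part of length in these calls beyond that refit was not tested. The counts of peaks and dips rose without S replicate 2, where the rule rests on the remaining S library alone and is looser. They fell without G2M replicate 2.

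**Figure D2:**
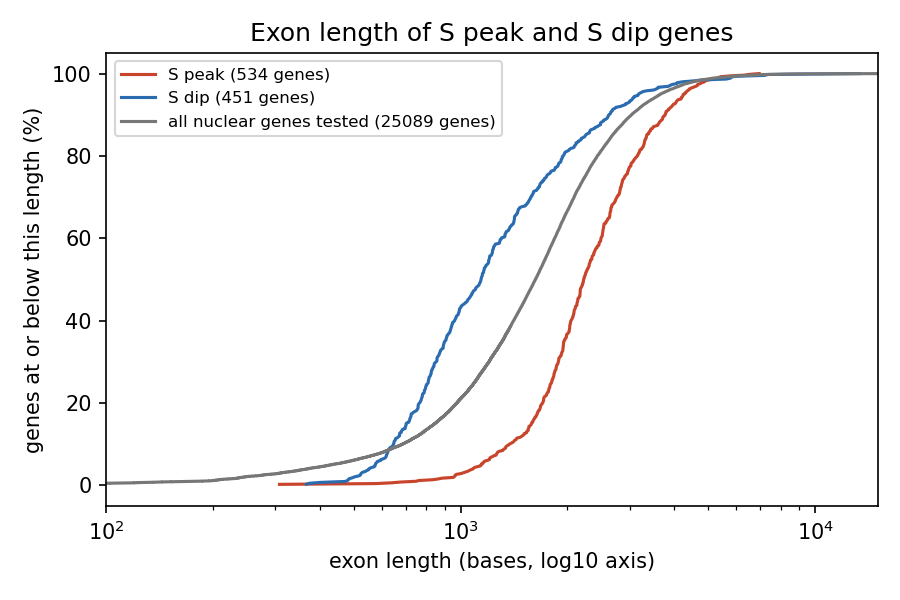
Share of genes (%) at or below each exon length (bases, log10 axis) for S peak genes, S dip genes and all nuclear genes tested. The curve of S peak genes lies to the right of the others, with a median of 2226 bases against 1142 in S dip genes.

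Genes that license replication origins dipped in S. Of 20 genes in this list, 12 were called lower (60.0%, against 2.17% of all genes) and none higher. Of these, 11 were S dips, and the list's median contrast was -0.70 against 0.13 over all genes. The 12 are the origin recognition subunits ORC2 and ORC6, the loaders CDC6 and CDT1A, the helicase subunits MCM2 to MCM6 and PRL (MCM7), MCM10 and the MCM-binding protein ETG1. CDC6 is the member called lower that is not a dip. Its G2M replicate 1, at 17.9 CPM, lay between the S libraries at 15.3 and 20.3 CPM.

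CDT1A (chromosome 2, 13328862 to 13331831, plus strand) read 158 and 148 CPM in G1, 54.1 and 83.0 CPM in S and 142 and 154 CPM in G2M. Both S libraries were far below the other 4, which lay close together. Its contrast was -1.15 ± 0.16 (log2, SE, adjusted p = 0.00097). ORC2 fell furthest in the list, from 14.2 and 16.6 CPM in G1 to 4.60 and 7.84 CPM in S, with 11.4 and 13.3 CPM in G2M. The contrast of ORC2 was -1.22 ± 0.23 (adjusted p = 0.0083).

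The MCM genes, whose products form the hexamer that unwinds DNA, moved together. MCM5 read 78.8 and 74.3 CPM in G1, 43.7 and 52.8 CPM in S and 75.5 and 84.1 CPM in G2M. MCM6 read 60.0 and 55.8 CPM in G1, 37.6 and 41.2 CPM in S and 75.4 and 82.9 CPM in G2M. In both genes the S libraries were the lowest, and G2M was level with G1 for MCM5 and above it for MCM6. Contrasts were -0.71 ± 0.12 for MCM5 (adjusted p = 0.0050) and -0.79 ± 0.12 for MCM6 (adjusted p = 0.0019). PRL, at -0.51, was the MCM member nearest to the threshold (adjusted p = 0.048). Its call, and that of CDC6 (adjusted p = 0.046), were lost in most refits without 1 library, with adjusted p up to 0.22 and 0.24 without S replicate 1. MCM10 was likewise not called in several refits, with contrasts of -0.75 in all libraries and -0.46 without S replicate 1 (adjusted p = 0.088), and it also lost its call without G1 replicate 2 or either G2M library (adjusted p from 0.052 to 0.057). Without S replicate 1 the contrast of PRL was -0.27 and that of ETG1 moved from -0.90 to -0.60, still called. The number of licensing genes called lower stayed between 9 and 15 when any single library was left out, and was 10 with the GC and length offsets.

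The members of this list that were not called include both ORC1 genes, ORC3, ORC4, ORC5, CDC6B, CDT1B and MCM8. CDT1B, the paralogue of CDT1A, took another course, at 17.1 and 16.9 CPM in G1, 22.6 and 28.2 CPM in S and 56.0 and 52.0 CPM in G2M. It climbed with DNA content, and its contrast was -0.27 ± 0.13 (adjusted p = 0.25). The difference between the paralogues was not tested.

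Of 36 genes of the replication fork, 15 were called lower (41.7%, against 2.17% of all genes), 13 of them as dips, and 3 higher (8.33%, against 5.09%), with a median contrast of -0.37. All 4 subunits of the polymerase alpha and primase complex were S dips, namely POLA2, POLA3, EMB2813 and ICU2. POLA3, the small primase subunit, read 47.0 and 48.7 CPM in G1, 16.005 and 18.19 CPM in S and 38.8 and 42.3 CPM in G2M. The 2 S libraries agreed closely and lay well below the rest, with a contrast of -1.38 ± 0.13 (adjusted p = 7.1e-05). CDC45 and the GINS members SLD5 and PSF2, which complete the active helicase, were dips as well, and so were the sliding clamp PCNA1 and the clamp loader subunit CTF18. Several of these calls were lost when 1 library was left out. EMB2813 kept its call only without S replicate 2 among the 6 refits (adjusted p up to 0.20 otherwise) and lost it with the offsets, while ICU2 moved from -0.87 to -0.56 without S replicate 1 (adjusted p = 0.072). PCNA1 lost its call without S replicate 1, G1 replicate 2 or either G2M library (adjusted p from 0.059 to 0.074). PSF2 lost it in the same 4 refits (adjusted p from 0.051 to 0.14), and CTF18 in all but the one without S replicate 1 (adjusted p from 0.062 to 0.13).

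Subunits of replication protein A, which coats single-stranded DNA, split. RPA70B read 57.8 and 74.99 CPM in G1, 14.7 and 36.9 CPM in S and 58.1 and 64.0 CPM in G2M. RPA70D read 58.6 and 69.5 CPM in G1, 23.4 and 32.6 CPM in S and 51.9 and 69.5 CPM in G2M. In both, S replicate 1 was lower than S replicate 2 and both were below all others, with contrasts of -1.37 ± 0.28 (adjusted p = 0.012) and -1.18 ± 0.17 (adjusted p = 0.0015). Without S replicate 1 the contrast of RPA70B was -0.79 and without S replicate 2 -2.16, called in both. RPA3A, at -1.59 ± 0.23 (adjusted p = 0.0014), and RPA3B, at -0.78 ± 0.16 (adjusted p = 0.011, lost without G2M replicate 2 at 0.070), were dips too. RPA1E went the other way, from 3.37 and 5.97 CPM in G1 to 24.8 and 17.5 CPM in S and 20.19 and 16.6 CPM in G2M. It was called higher on the contrast at 1.22 ± 0.22 (adjusted p = 0.0061) but is no peak, since S replicate 2 lay below G2M replicate 1, and it was not called without S replicate 1 (adjusted p = 0.069).

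The other fork genes called higher were POLD4, a subunit of polymerase delta, and TOPII, the type II topoisomerase that untangles sister chromatids. TOPII read 19.2 and 19.6 CPM in G1, 200.4 and 206.6 CPM in S and 267.7 and 205.1 CPM in G2M. It stepped up between G1 and S and G2M lay level with or above S, with differences of 3.39 ± 0.15 from G1 and -0.22 ± 0.14 from G2M (adjusted p = 2.6e-08 and 0.28). POLD4, with a contrast of 0.61 ± 0.14 (adjusted p = 0.018), had the same form. Its call was lost without G1 replicate 1, S replicate 1, G2M replicate 1 or G2M replicate 2 (adjusted p from 0.057 to 0.12). Among fork genes not called, the ligase LIG1 and the flap nuclease FEN1, which finish lagging-strand pieces, had contrasts of 0.32 and 0.26. The number of fork genes called lower was 8 without S replicate 1 and 7 without G2M replicate 2. Genes on the opposite strand overlap RPA70B, POLA3 and ICU2 here and RECQI1, RBR1, MSH7, EMB2795 and WRKY53 in what follows. Strandedness is not given, so their counts are uncertain.

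**Figure D3:**
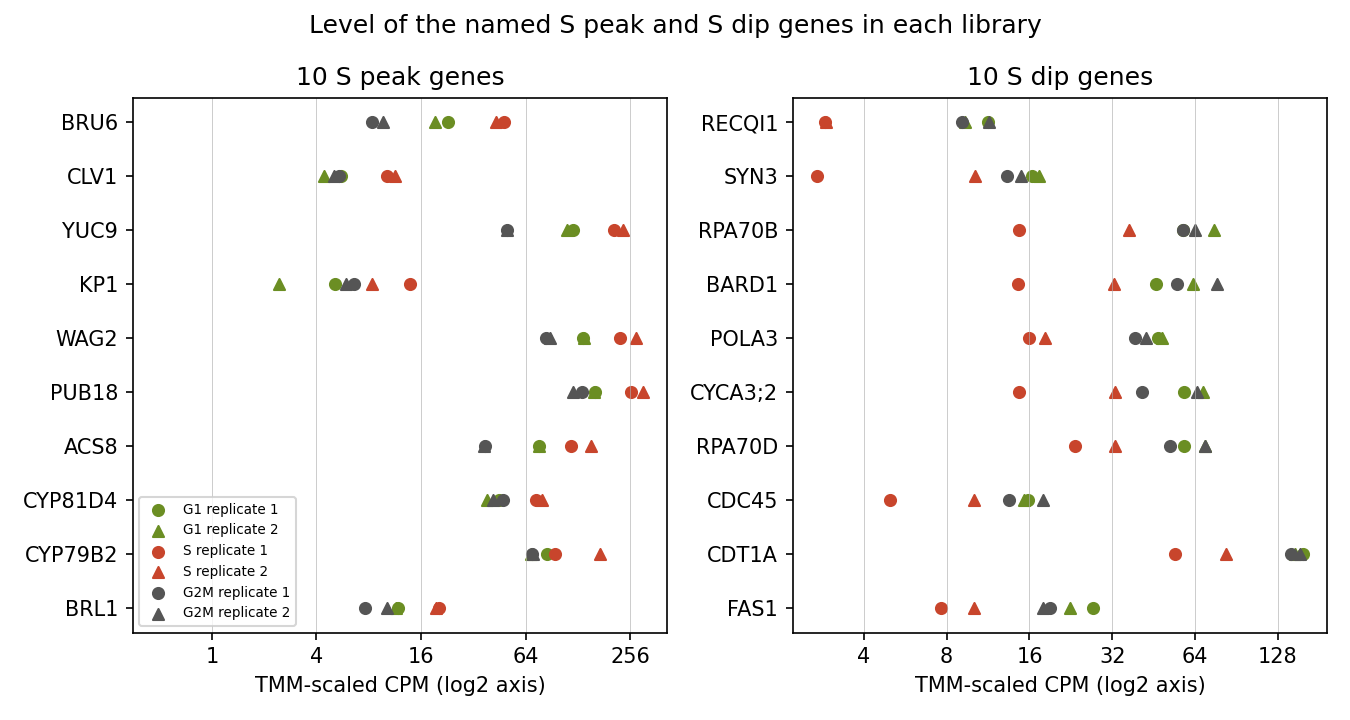
TMM-scaled CPM (log2 axis) in each of the 6 libraries for the 10 S peak genes (left) and the 10 S dip genes (right) named by the rule on differences from both gates, with colours for gates and circles and triangles for replicates 1 and 2. Both S libraries lie outside the other 4 in every row, which the definition requires, and in SYN3, RPA70B and BARD1 S replicate 1 lies well below S replicate 2.

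Of the 10 dips with the largest differences from both gates, most belong to replication and repair. RECQI1, a RecQ-type DNA helicase (chromosome 3, 1698079 to 1701467, plus strand), led them. It read 11.3 and 9.33 CPM in G1, 2.89 and 2.90 CPM in S and 9.06 and 11.4 CPM in G2M. The S libraries matched each other and lay far below every other library, with a contrast of -1.83 ± 0.24 (adjusted p = 0.00067). BARD1, which pairs with BRCA1 in recombination repair, read 46.3 and 62.9 CPM in G1, 14.5 and 32.4 CPM in S and 55.0 and 76.6 CPM in G2M. Its contrast was -1.42 ± 0.27 (adjusted p = 0.0085), and -0.89 without S replicate 1, still called. SYN3, a cohesin subunit of the kleisin type, fell by 1.44 ± 0.39 (adjusted p = 0.045), with 2.70 and 10.1 CPM in S against 13.3 to 17.3 CPM elsewhere. Its call was lost when any library other than S replicate 2 was left out (adjusted p from 0.075 to 0.11), and its contrast was -0.61 without S replicate 1 and -2.55 without S replicate 2. CDC45 fell by 1.14 ± 0.26 (adjusted p = 0.020), a call lost without S replicate 1, where the contrast was -0.65, or G2M replicate 2 (adjusted p = 0.10 and 0.079). The remaining members of these 10 are RPA70B, POLA3, RPA70D, CDT1A, CYCA3;2 and FAS1.

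A share of these dips carry the DNA word that E2F factors bind. The motif was searched as TTTCCCGC or TTTGGCGC, on either strand, in a window from 250 bases before to 50 bases after the annotated gene start, in the RefSeq TAIR10.1 genome. It was present in 41 of 451 S dip windows (9.09%), in 5 of 534 S peak windows (0.936%) and in 301 of all 25088 windows (1.20%). In the licensing list 11 of 20 windows held it, including 6 of its 11 dips, and in the fork list 11 of 36, including 8 of its 13 dips. Of the 399 dips in none of the lists, 22 (5.51%) held it. With the GC and length offsets, 35 of 223 dips (15.695%) had the motif, and without the requirement that S libraries lie apart, 43 of 545 genes called lower (7.89%) had it. Without S replicate 2, when 1774 dips were called, the share was 3.49%, and without S replicate 1 it was 8.84%. A match is a description of the letters and not evidence of binding.

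Windows of licensing genes that were not called also hold the motif, among them those of ORC1A, ORC3, CDC6B and MCM8. The sites shown next were picked from dip genes with a match upstream of the start, so they share it by that choice. Each is written along the gene's own strand with the 8 motif letters in capitals, which appear as GCGGGAAA or GCGCCAAA where the match is on the other strand.
POLA3: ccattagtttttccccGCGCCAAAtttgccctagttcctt
RPA70B: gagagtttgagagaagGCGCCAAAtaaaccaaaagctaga
RPA70D: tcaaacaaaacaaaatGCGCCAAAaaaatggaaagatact
FAS1: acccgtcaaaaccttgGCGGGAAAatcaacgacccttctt
MCM4: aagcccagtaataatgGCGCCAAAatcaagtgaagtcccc
MCM6: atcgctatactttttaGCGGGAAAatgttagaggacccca
RBR1: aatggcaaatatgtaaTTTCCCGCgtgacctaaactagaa
PSF2: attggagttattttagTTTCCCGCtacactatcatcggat
These stretches lie at chr5:16760801-16760840 for POLA3 (plus strand), chr5:2571894-2571933 for RPA70B (plus), chr5:24552858-24552897 for RPA70D (minus) and chr1:24324135-24324174 for FAS1 (minus). Those of MCM4, MCM6, RBR1 and PSF2 lie at chr2:7130741-7130780, chr5:18010690-18010729, chr3:3919412-3919451 and chr3:3974443-3974482, all on the minus strand. In these genes the motif began between 26 bases (RPA70D, PSF2) and 76 bases (RBR1) before the start. FAS1 has a further match 128 bases before its start. The window of CDT1A holds no match to these letters, nor do those of BARD1, CYCA3;2 and CDC45 among the 10 dips named first.

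RBR1, the brake on E2F, was itself a dip, at 86.0 and 76.7 CPM in G1, 40.5 and 52.5 CPM in S and 92.3 and 94.2 CPM in G2M. Both S libraries were below the other gates by a wide margin, with a contrast of -0.92 ± 0.13 (adjusted p = 0.0014). In the list of G1 cyclins, RBR1 and E2F genes, 2 of 20 were called in each direction, with a median of -0.08. Over all genes, 5.09% were called higher and 2.17% lower. DEL3, an atypical E2F, peaked in S at 23.4 and 21.4 CPM against 8.50 to 16.2 CPM in the other libraries, with a contrast of 0.94 ± 0.14 (adjusted p = 0.0022). CYCD4;1 fell by 0.69 ± 0.19 (adjusted p = 0.047) and CYCD1;1 was higher by 0.95 ± 0.25 (adjusted p = 0.041). Neither of these D-type cyclins kept its call when any library other than S replicate 2 was left out, with adjusted p up to 0.18 and 0.19, and without S replicate 2 the number called lower was 7. The activators E2F3 (E2FA) and E2F1 (E2FB) had contrasts of -0.51 ± 0.18 and 0.31 ± 0.15 and were not called (adjusted p = 0.11 and 0.22).

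**Figure D4:**
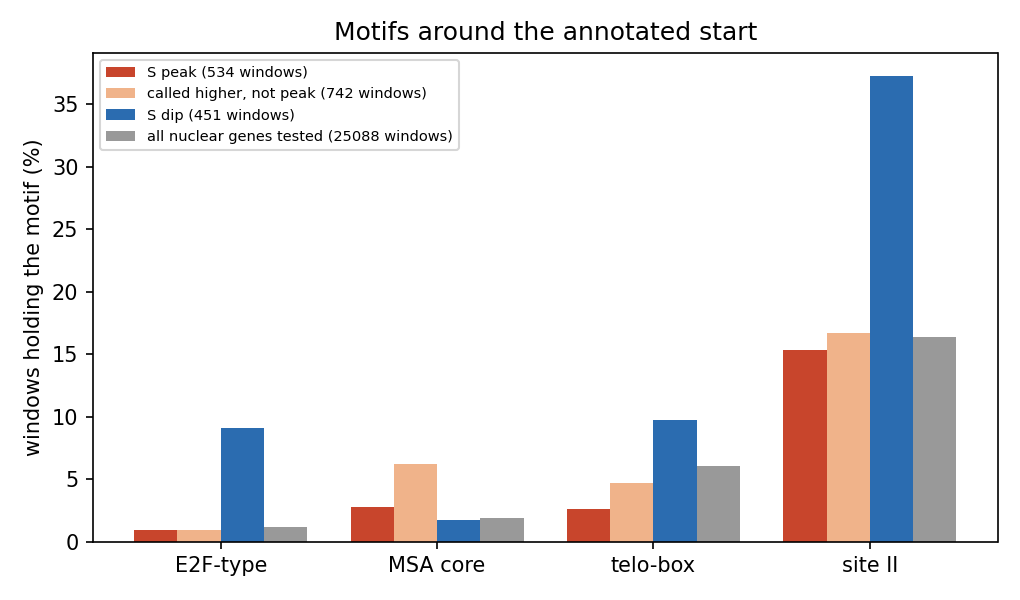
Share of start windows (%) that hold each motif on either strand, for S peak genes, other genes called higher, S dip genes and all nuclear genes tested. The E2F-type motif stands at 9.09% in S dip windows against 1.20% of all, and the MSA core at 6.20% in genes called higher that are no peak against 1.93% of all.

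Other words differed between the classes as well. Site II, TGGGCC, found upstream of many ribosomal protein genes, was in 37.3% of dip windows, 15.4% of peak windows and 16.4% of all. The telo-box AAACCCTA was in 9.76% of dip windows, 2.62% of peak windows and 6.11% of all. Among dips called with the GC and length offsets the telo-box share was 3.59% and that of site II 28.3%, so the telo-box lay above the share of all windows in one fit and below it in the other.

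Among enzymes that supply nucleotides, 2 of 9 tested genes were called lower (22.2%, against 2.17% of all genes) and none higher. The list's median contrast was -0.19. DUT1, which removes dUTP, read 113 and 129 CPM in G1, 36.4 and 58.0 CPM in S and 73.1 and 87.3 CPM in G2M. It was lowest in both S libraries, with a contrast of -1.09 ± 0.17 (adjusted p = 0.0029). RNR1, the large subunit of ribonucleotide reductase, fell by 0.66 ± 0.11 (adjusted p = 0.0040). TSO2, a small subunit of the same enzyme, had a contrast of -0.47 and was not called (adjusted p = 0.17), and without S replicate 2 the number called lower was 4. Without S replicate 1, 2 members were called higher and the median was -0.05, and it was -0.12 without G1 replicate 1 and -0.08 without G2M replicate 2.

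FAS1 and FAS2, subunits of chromatin assembly factor 1, and ATXR6, a methyltransferase of histone H3, were dips, the only members called lower of 26 genes for chromatin assembly and DNA methylation. That share was 11.5%, against 2.17% of all genes. FAS1 read 27.3 and 22.4 CPM in G1, 7.63 and 10.04 CPM in S and 19.1 and 17.9 CPM in G2M, with a contrast of -1.31 ± 0.18 (adjusted p = 0.00093). ATXR6 fell by 1.33 ± 0.20 (adjusted p = 0.0019) and FAS2 by 1.27 ± 0.27 (adjusted p = 0.014). Both S libraries were below the other 4 in all 3 genes. FAS2 lost its call without G2M replicate 2 (adjusted p = 0.072), and 9 members were called lower without S replicate 2.

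The 4 members called higher (15.4%, against 5.09% of all genes), CMT3, CHR1 (DDM1), VIM1 and VIM3, all act in keeping DNA methylated. CMT3 read 61.0 and 59.2 CPM in G1, 121 and 134 CPM in S and 139 and 138 CPM in G2M, a step between G1 and S. Contrasts were small, between 0.42 (VIM1) and 0.56 (CHR1), and none of these genes is a peak. None was called without G2M replicate 1 or G2M replicate 2, with adjusted p between 0.059 and 0.21, nor with the GC and length offsets. The contrast of VIM1 was 0.27 without S replicate 2. MET1, the main maintenance methyltransferase, had a contrast of -0.43 and was not called (adjusted p = 0.12).

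Core histone genes, many of whose transcripts are known to accumulate in S phase, were mostly not called. The list takes histone variants in with the others. Of 39 tested, 6 were called higher (15.4%, against 5.09% of all genes), 3 of them as peaks (7.69% against 2.13%), and 2 lower (5.13% against 2.17%). The median contrast was 0.18 against 0.13 over all genes, and it was 0.10 without G2M replicate 1 or with upper-quartile factors and 0.30 without G2M replicate 2. With the GC and length offsets none of the 39 was called in either direction. Their median difference was -0.25 from G1 and 0.63 from G2M, and 27 of 39 passed as higher in S than in G2M, while 1 passed as higher and 9 as lower against G1. The peak with the smallest adjusted p was AT4G40040, an H3 gene, at 543 and 537 CPM in G1, 805 and 947 CPM in S and 612 and 639 CPM in G2M. Its contrast of 0.59 ± 0.10 (adjusted p = 0.0046) was lost as a call without G2M replicate 1 (adjusted p = 0.058) and with the offsets.

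HTA9, which encodes an H2A variant, was an S dip with a contrast of -0.60 ± 0.11 (adjusted p = 0.0064). The other histone gene called lower, AT5G10390, had a contrast of -0.69 and lost its call without G1 replicate 1 or 2, S replicate 1 or G2M replicate 2 (adjusted p from 0.052 to 0.15). Without G2M replicate 1 no histone gene was called higher, and without G1 replicate 1 a single gene was. Histone genes are near-identical copies, and how reads that fit several of them were counted is not given in the sources used here, so values of single histone genes are uncertain.

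In the list for DNA repair and checkpoints, 4 of 34 genes were called lower (11.8%, against 2.17% of all genes), all as dips. Another 3 were called higher (8.82%, against 5.09%). Besides BARD1, the dips were the mismatch repair genes MSH6 and MSH7 and the uracil glycosylase UNG. MSH7 fell by 0.67 ± 0.13 (adjusted p = 0.010), MSH6 by 0.63 ± 0.14 (adjusted p = 0.020) and UNG by 0.79 ± 0.20 (adjusted p = 0.033). PARP1, PARP2 and RAD54 were called higher, with contrasts of 0.56, 0.65 and 0.64 that came from differences of 1.30, 1.09 and 1.22 against G1. All of these except BARD1 lost their call without G2M replicate 2, with adjusted p from 0.056 (PARP2) to 0.18 (PARP1), and the 3 higher calls also without either G1 library. The contrast of PARP1 was 0.37 without S replicate 1. Without S replicate 2 the list had 5 genes called higher and 6 lower.

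Cohesin and condensin genes had 6 of 18 members called higher (33.3%, against 5.09% of all genes). SYN3 was the 1 member called lower (5.56%, against 2.17%). EMB2795, a condensin subunit, read 8.15 and 7.27 CPM in G1, 38.9 and 35.5 CPM in S and 24.9 and 23.0 CPM in G2M. It was highest in both S libraries, with a contrast of 1.46 ± 0.13 (adjusted p = 3.7e-05) and differences of 2.27 from G1 and 0.64 from G2M. ATSMC2, another condensin subunit, was called higher at 1.12 ± 0.15 (adjusted p = 0.00080) without being a peak. SYN1, SYN2 and SYN4, which are kleisins like SYN3, were S peaks, with contrasts of 2.52, 0.58 and 0.54 (adjusted p = 0.016, 0.014 and 0.016). SYN1 was read at 4.12 and 1.33 CPM in S and at 0.742 CPM or less elsewhere, and its contrast was 1.43 without S replicate 1 (adjusted p = 0.30). It was also not called without G1 replicate 1 or G2M replicate 2 (adjusted p = 0.064 and 0.073). SYN2 lost its call without G1 replicate 1 or either G2M library (adjusted p from 0.057 to 0.096), and SYN4 without G1 replicate 2, S replicate 1 or G2M replicate 2 (adjusted p from 0.062 to 0.11). Neither was called with the offsets. Without G2M replicate 2 the list held 2 genes called higher.

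Mitotic genes were called higher in S more often than genes at large. Of 34 mitotic cyclin and kinase genes, 25 were called higher (73.5%, against 5.09% of all genes) and 2 lower (5.88%, against 2.17%). Peaks numbered 7 (20.6%, against 2.13% of all genes). The number of peaks was 3 with the GC and length offsets, 5 with DESeq2 size factors and 9 with upper-quartile factors. The list's median contrast of 1.36 combined a median of 2.83 against G1 with -0.10 against G2M. Among the 34 genes, 26 passed as higher in S than in G1, whereas against G2M 2 passed as higher and 4 as lower. Between 25 and 27 of these genes were called higher when any single library was left out, and 25 with the GC and length offsets.

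CYCB1;1, the B-type cyclin used as a reporter of G2 and mitosis, read 4.87 and 4.23 CPM in G1, 62.4 and 67.0 CPM in S and 85.8 and 77.7 CPM in G2M. The S libraries were near those of G2M and far above G1. Its differences were 3.82 ± 0.15 from G1 and -0.34 ± 0.14 from G2M (adjusted p = 1.9e-08 and 0.099). Its level in the S gate may come from cells of any stage between 2n and 4n, and its part in the other values was not tested. CYC1BAT (CYCB1;2) was higher still in G2M, at 160 and 191 CPM in S against 268 and 233 CPM in G2M, and CYCB1;4 and CYCB2;4 passed as lower in S than in G2M, by 0.75 and 0.72 (adjusted p = 0.0045 and 0.0060).

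CYCA1;1, an A-type cyclin, was a peak and had the largest contrast of the list. It read 2.25 and 1.99 CPM in G1, 65.0 and 60.2 CPM in S and 49.8 and 47.6 CPM in G2M. Both S libraries were highest, with a contrast of 2.62 ± 0.12 (adjusted p = 4.9e-07), although the difference from G2M alone, 0.37 ± 0.14, did not pass (adjusted p = 0.082). CYCA2;4 peaked too, at 64.5 and 76.8 CPM in S against 28.5 to 53.1 CPM elsewhere. The other peaks were CYCA2;1, the CDK subunit CKS2, the Aurora kinases AUR2 and AUR3 and the anaphase activator CDC20.2.

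The members called lower were the A3-type cyclins CYCA3;1 and CYCA3;2, whose tobacco relatives act around S phase. CYCA3;2 read 58.6 and 68.4 CPM in G1, 14.7 and 32.9 CPM in S and 41.0 and 64.9 CPM in G2M, a dip of 1.35 ± 0.28 in size (adjusted p = 0.012). CYCA3;1 dropped by 0.79 ± 0.22 (adjusted p = 0.046). Without S replicate 1 neither was called, with adjusted p of 0.053 for CYCA3;2, whose contrast was then -0.83, and 0.16 for CYCA3;1, and CYCA3;1 was not called without G1 replicate 1, G1 replicate 2 or G2M replicate 2 (adjusted p from 0.088 to 0.22).

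Genes of the spindle, the kinetochore and the phragmoplast, the structure that lays down the new wall, had 23 of 32 members called higher (71.9%, against 5.09% of all genes). None was called lower and 4 were peaks (12.5%, against 2.13%), a number that was 2 with the GC and length offsets. DRP5A, a dynamin of cell division, read 5.07 and 4.99 CPM in G1, 183 and 159 CPM in S and 201 and 158 CPM in G2M. S and G2M overlapped, and its contrast of 2.51 ± 0.12 (adjusted p = 4.9e-07) came from a difference of 5.09 from G1. PLE (MAP65-3), which bundles phragmoplast microtubules, had differences of 4.16 from G1 and -0.40 from G2M. The peaks were the checkpoint genes BUB1 and BUB3.1, the centromere protein CENP-C and the kinase NP2 (ANP2). Of 28 kinesin motors, 16 were called higher (57.1%) and 2, KP1 and ATK3, peaked (7.14%). No kinesin was a peak without G1 replicate 2, without G2M replicate 2 or with the offsets. ATK3 lost its call in these 3 fits and without G2M replicate 1 (adjusted p from 0.063 to 0.24). ATK5 and AT1G72250 had the smallest adjusted p among them, 5.7e-06 and 1.1e-05, and stepped up at S by 4.37 and 3.78 against G1.

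The MSA core CCAACGG was in 8 of 34 windows of the mitotic list (23.5%) and in 2 of 32 of the spindle list, against 1.93% of all windows, 2.81% of S peaks and 6.20% of the 742 genes called higher that are no peak. A pair of cyclin sites is shown for comparison with the dip genes above, with the 7 motif letters in capitals.
CYCB1;1: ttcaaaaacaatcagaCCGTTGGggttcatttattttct
CYC1BAT: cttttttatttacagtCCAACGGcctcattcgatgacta
They lie at chr4:17624347-17624385 and chr5:1861826-1861864, both on the minus strand, with the motif beginning 61 and 145 bases before the start. In CYCB1;1 the match is on the other strand. No mitotic window held the E2F-type motif.

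The other genes named for the size of their contrast without being peaks or dips had steps of both kinds. ROPGEF6, an activator of ROP GTPases, read 3.08 and 0.773 CPM in G1, 71.8 and 74.0 CPM in S and 76.9 and 62.3 CPM in G2M. CDKB2;1, a kinase of G2 and mitosis, read 5.93 and 3.99 CPM in G1 and between 79.9 and 91.5 CPM in the other 4 libraries. Both rose at S and were level beyond it. HVA22F went the other way, with 14.9 and 10.6 CPM in G1 and at most 0.253 CPM in the S and G2M libraries, and SUS5, a sucrose synthase, likewise fell from 18.6 and 10.2 CPM to at most 1.03 CPM. Their calls were lost without G2M replicate 2 (adjusted p = 0.11 and 0.077), and that of SUS5 also without G1 replicate 1 (adjusted p = 0.098). The contrast of SUS5 moved from -2.13 to -5.38 without S replicate 1.

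Among S peak genes with the largest differences from both gates, several belong to auxin biology. BRU6 (GH3.2, chromosome 4, 17579618 to 17582022, plus strand), which conjugates auxin to amino acids, read 22.8 and 19.3 CPM in G1, 48.0 and 43.4 CPM in S and 8.40 and 9.62 CPM in G2M. YUC9, an enzyme of auxin synthesis, read 119 and 111 CPM in G1, 206 and 234 CPM in S and 50.2 and 50.1 CPM in G2M. WAG2, a kinase that acts on auxin efflux carriers, read 137 and 139 CPM in G1, 223 and 277 CPM in S and 84.4 and 88.8 CPM in G2M. In all 3 genes the S libraries were highest and the G2M libraries lowest, so they fell from S to G2M by more than they rose from G1. Contrasts were 1.73 ± 0.13 for BRU6 (adjusted p = 1.3e-05), 1.53 ± 0.10 for YUC9 (adjusted p = 5.1e-06) and 1.19 ± 0.11 for WAG2 (adjusted p = 4.4e-05).

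ACS8, an ethylene precursor synthase described as auxin-inducible in the annotation, had the same form, at 117 and 152 CPM in S against 76.8 and 76.9 CPM in G1 and 37.3 and 36.8 CPM in G2M (contrast 1.33 ± 0.12, adjusted p = 3.6e-05). CYP79B2, which turns tryptophan into indole-3-acetaldoxime, read 94.2 and 172 CPM in S against 69.0 to 84.5 CPM elsewhere. Its contrast of 0.85 ± 0.18 (adjusted p = 0.016) was lost as a call without G1 replicate 2, S replicate 2 or G2M replicate 1 (adjusted p from 0.055 to 0.097) and with the GC and length offsets, and it was 0.32 without S replicate 2. The S libraries of CYP79B2 thus differed more from each other than those of YUC9 or WAG2 did.

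A pair of these 10 genes encode receptor kinases. CLV1, which restrains stem cell number in the shoot, read 5.52 and 4.42 CPM in G1, 10.2 and 11.4 CPM in S and 5.40 and 5.06 CPM in G2M. BRL1, a receptor of brassinosteroid hormones, read 11.7 and 11.5 CPM in G1, 20.3 and 19.4 CPM in S and 7.60 and 10.2 CPM in G2M. For CLV1 the G1 and G2M libraries lay together at about the same level, with S above both, and its contrast was 1.07 ± 0.21 (adjusted p = 0.010), lost without G2M replicate 2 (adjusted p = 0.058). The contrast of BRL1 was 0.97 ± 0.16 (adjusted p = 0.0044).

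The remaining peaks of the 10 were the ubiquitin ligase PUB18, CYP81D4, a cytochrome P450 gene like CYP79B2, and the kinesin KP1. PUB18 read 160 and 158 CPM in G1, 260 and 303 CPM in S and 136 and 120 CPM in G2M, with a contrast of 0.98 ± 0.11 (adjusted p = 0.00017). CYP81D4 was higher by 0.83 ± 0.12 (adjusted p = 0.0014), with 73.3 and 80.0 CPM in S against 38.6 to 47.5 CPM elsewhere. KP1, at 13.8 and 8.39 CPM in S, had a contrast of 1.22 ± 0.29 (adjusted p = 0.027) that lost its call without G1 replicate 2, S replicate 1, G2M replicate 1 or G2M replicate 2 (adjusted p from 0.066 to 0.24) and with the offsets, and was 0.78 without S replicate 1. None of the 10 windows of these peak genes held the E2F-type motif, against 6 of the 10 windows of the named dips.

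Among 18 CDK inhibitor and endocycle genes, 3 were S dips (16.7%, against 1.8% of all genes) and 1 a peak (5.56%, against 2.13%). Their median contrast was -0.08, and from -0.39 to -0.03 when any single library was left out, with -0.39 without S replicate 1. CCS52A2, an activator of the anaphase-promoting complex, read 22.2 and 25.1 CPM in G1, 6.20 and 10.4 CPM in S and 14.3 and 14.3 CPM in G2M (contrast -1.22 ± 0.21, adjusted p = 0.0046). The CDK inhibitor ICK6 (KRP3) fell by 1.00 ± 0.21 (adjusted p = 0.012) and ICK3 (KRP5) by 0.79 ± 0.20 (adjusted p = 0.032), whereas ICK5 (KRP7) was higher by 0.62 ± 0.15 (adjusted p = 0.030). The 3 inhibitors lost their calls without G1 replicate 2, S replicate 1 or G2M replicate 2 (adjusted p from 0.050 to 0.16), and CCS52A2 kept its call without each library in turn. Without S replicate 2 the number called lower was 5.

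**Figure D5:**
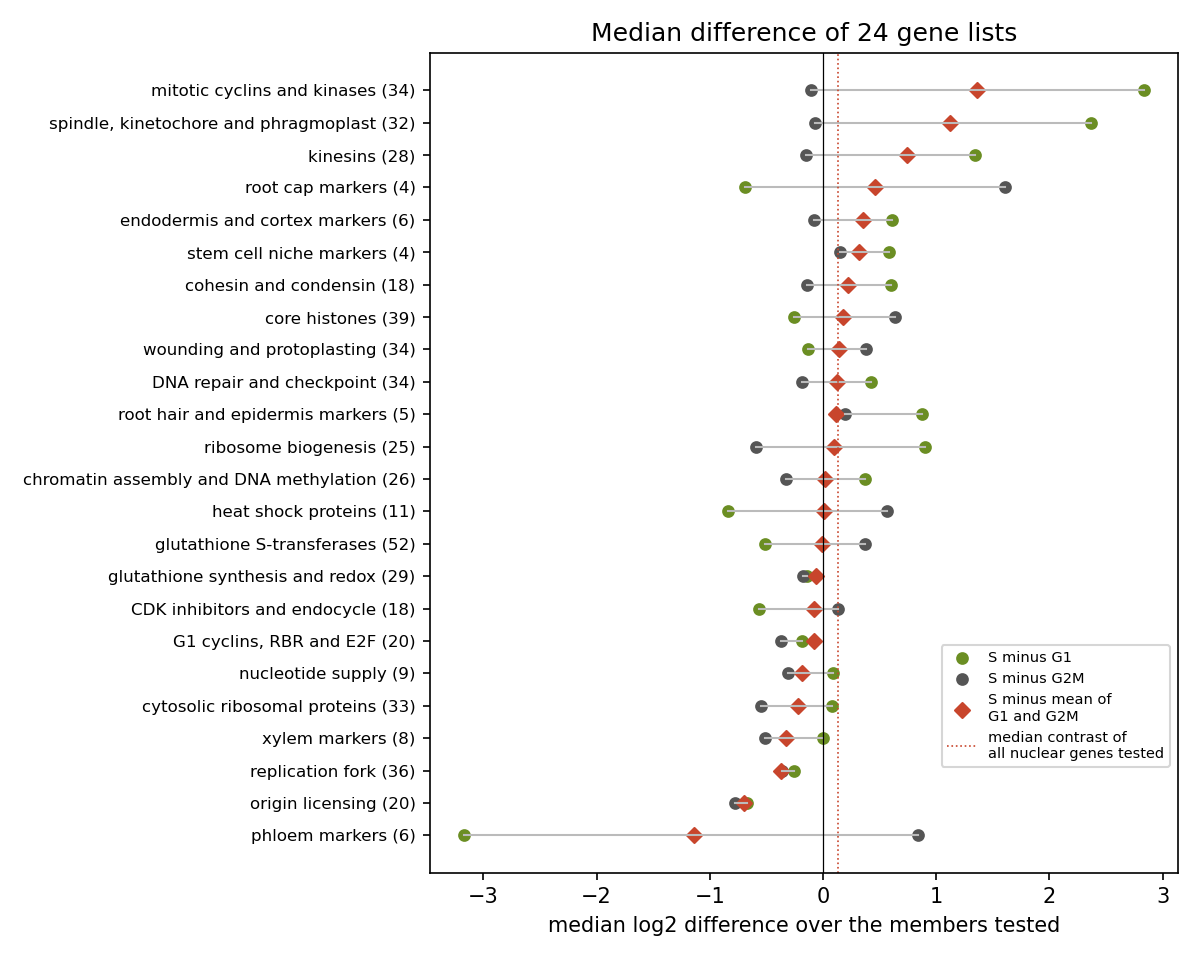
Median log2 difference over the tested members of 24 gene lists (number of members in brackets), for S minus G1, S minus G2M and S minus the mean of both, with the median contrast of all nuclear genes as a dotted line. In the licensing and fork lists all 3 markers lie left of 0, while in the mitotic, spindle and kinesin lists S minus G2M lies near 0.

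Most ribosome biogenesis genes read higher in S than in G1 and lower than in G2M. None of 25 ribosome biogenesis genes was called in either direction by edgeR, with 7 at an unadjusted p under 0.05. DESeq2 called 1 and limma-voom 4, and 5 were called without S replicate 1. Against single gates, 24 of the 25 passed as higher in S than in G1 and 20 as lower in S than in G2M. Of 33 cytosolic ribosomal protein genes, 4 were called lower (RPS28, RPS15A, RPS15AD and AT3G23390), all as dips (12.1%, against 1.8% of all genes). Against single gates, 29 of the 33 passed as lower in S than in G2M, whereas 5 passed as higher and 2 as lower than in G1, with a median difference from G1 of 0.08, as over all genes. RPS28 had the largest contrast, -0.69 ± 0.12 (adjusted p = 0.0042). The other 3 were not called without G1 replicate 2, G2M replicate 1 or G2M replicate 2 (adjusted p from 0.057 to 0.17). The count was 16 with upper-quartile factors, 20 without S replicate 2 and 1 with the GC and length offsets, and near-identical copies make single values uncertain.

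Markers of cell types differed between the gates. The summed level of 4 root cap markers was 461 to 539 CPM in G1, 359 to 368 CPM in S and 100 to 109 CPM in G2M. NAC070 (BRN2) and NAC015 (BRN1) were called higher on the contrast, by 0.95 ± 0.11 and 0.74 ± 0.10 (adjusted p = 0.00022 and 0.00076), and neither was a peak. Over the 4 markers the median difference of S was -0.69 from G1 and 1.61 from G2M. Against single gates, 3 passed as lower than in G1 and 4 as higher than in G2M. The auxin genes named above also fell from S to G2M, and the part of root cap cells in their values was not tested. The sum of 6 phloem markers was 68.7 to 82.7 CPM in G1, 17.1 to 25.4 CPM in S and 13.1 to 14.1 CPM in G2M, with 2 markers at 0 in S replicate 2 and 1 in G2M replicate 1. NAC045 and NAC086, factors of sieve element maturation, were called lower, by 1.55 ± 0.36 and 2.22 ± 0.55 in size (adjusted p = 0.022 and 0.032), as steps down from G1. NAC086 was not called without either G1 library or G2M replicate 2 (adjusted p from 0.072 to 0.29), and its fitted contrast of -10.24 without S replicate 1 rests on an S library at 0. Nor was NAC045 called without G1 replicate 1 or G2M replicate 1 (adjusted p = 0.099 and 0.087).

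Xylem markers summed to 14.8 to 18.1 CPM in G1, 9.02 to 21.7 CPM in S and 31.7 to 43.1 CPM in G2M, with 1 of 8 at 0 in S replicate 2 and 2 in G2M replicate 1. The xylem proteases XCP1 and XCP2 were called lower, by 1.40 ± 0.28 and 1.77 ± 0.48 in size (adjusted p = 0.011 and 0.045), and neither was called without G2M replicate 1 or G2M replicate 2 (adjusted p from 0.054 to 0.16). XCP2 was also not called without G1 replicate 2 or S replicate 2 (adjusted p = 0.12 and 0.054), and its contrast was -3.17 without S replicate 1. No gene was called among 5 epidermis, 6 endodermis and cortex and 4 stem cell niche markers tested with edgeR, where 1, 1 and 2 genes had an unadjusted p under 0.05. DESeq2 called none of them and limma-voom 1, 1 and 0. Summed levels of the niche markers ran from 82.7 to 142 CPM over all libraries, and of the epidermis markers from 86.6 to 112 CPM. The sum of the endodermis and cortex markers was 7.00 to 8.46 CPM in G1, 9.65 to 11.7 CPM in S and 20.3 to 26.2 CPM in G2M.

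In the list of wounding and protoplasting genes, 4 of 34 were called higher (11.8%, against 5.09% of all genes) and 2 lower (5.88%, against 2.17%). WRKY53 read 49.03 and 44.3 CPM in G1, 42.9 and 46.7 CPM in S and 11.7 and 13.9 CPM in G2M, so that S was level with G1 (contrast 0.87 ± 0.13, adjusted p = 0.0016). WRKY18 was an S dip at 12.4 and 12.2 CPM in S against 19.0 to 23.2 CPM elsewhere, with a contrast of -0.80 ± 0.15 (adjusted p = 0.0082) that was lost without G2M replicate 2 (adjusted p = 0.054). RHL41 (ZAT12), TCH4 and JAR1 were higher by 0.57, 0.56 and 0.41, and LOX3 fell by 0.55. Each of these 4 lost its call without G1 replicate 1 and G2M replicate 1 in turn, with adjusted p from 0.093 to 0.24, and the contrast of JAR1 was 0.25 without S replicate 2. No heat shock gene of 11 was called by edgeR, with 2 at an unadjusted p under 0.05 and 1 called by DESeq2 and by limma-voom.

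Glutathione S-transferases, which attach glutathione to toxic compounds, had 3 of 52 members called higher, a share of 5.77% near the 5.09% of all genes, and 4 lower (7.69%, against 2.17%). GSTF8 stepped down from 1038 and 935 CPM in G1 to 355 and 361 CPM in S and 326 and 392 CPM in G2M (contrast -0.73 ± 0.11, adjusted p = 0.0021). GSTU25 fell throughout, from 2306 and 2133 CPM in G1 to 1377 and 1234 CPM in S and 373 and 394 CPM in G2M, and was still called higher on the contrast, by 0.50 ± 0.10 (adjusted p = 0.0095), because the drop from S to G2M was the larger on the log scale. Its reads may be shared with its near copy GSTU24, which was not called. GSTU22 and GSTU1 were higher by 0.42 and 0.40, and GSTU6, GSTU4 and ERD9 were dips, the last resting on a single library at 7.97 CPM in G2M. The contrast of ERD9 moved from -5.57 to -3.11 without that library and to -2.93 without S replicate 1. All but GSTF8 lost their calls without G2M replicate 2, with adjusted p from 0.056 to 0.41, and without S replicate 2 the number called lower was 8. In the glutathione synthesis list 1 of 29 genes was called (3.45%, below the 5.09% of all genes called higher). This was GGT1, a peak of 0.66 ± 0.13 (adjusted p = 0.010) that was not called without G2M replicate 1 (adjusted p = 0.075).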

How the data were processed

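Per the labels, cDNA came from the SMART-Seq v4 kit and the Ovation Ultralow V2 kit then gave the libraries. Trimmomatic 0.39, HISAT2 2.2.1, featureCounts and the TAIR10 build are named in the submitters' processing notes, while strandedness and the handling of reads with several positions are, in the sources used here, not given. The deposited table analysed holds raw counts per gene, made by the authors without normalization, per the labels and its whole numbers. A second deposited table was not used, because its unit could not be settled.

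Counts of all genes were fitted with edgeR 4.0.16 in R 4.3.3 (TMM factors, filterByExpr, quasi-likelihood F test, 1 fit of 3 gates), with the contrast of S minus the mean of the G1 and G2M coefficients and Benjamini-Hochberg adjustment over 25364 genes, organelle genes included. The fit had a common dispersion of 0.0555 and 9.45 prior degrees of freedom. A permutation test of single genes could not pass with so few libraries, and every call borrows its error estimate from all genes. In simulated counts this contrast recovered 73% of 2-fold and 91% of 4-fold changes, with 13 false calls among 24380 unchanged genes. The changed genes were drawn above a mean level higher than the low-count filter, and only the S gate was changed. These shares therefore do not cover the genes of lowest level. Each simulated gene had 1 spread shared by the 3 gates, while the real S libraries were less alike than those of G1 or G2M. The recovery and the false calls do not cover that difference. CPM are TMM-scaled and not per length. Values after ± are standard errors of the fit, which take in the estimated spread between libraries, while floors cover counting error only.

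Names and positions come from the RefSeq TAIR10.1 annotation. The 24 lists were matched by symbol, identifier or description. Members and lists were chosen with earlier results of these data known. Genes were named by a rule: the 10 peaks and 10 dips with the largest smaller difference from both gates (a symbol and a mean of at least 10 CPM in S for peaks and in both other gates for dips), the 4 largest contrasts per direction that are neither, the 2 called members per list with the smallest adjusted p, every member where 5 or fewer were called, and CDT1A, CYCB1;1 and MCM5. Other members of the licensing, fork, mitotic, spindle, histone and cohesin lists were named after their values were seen. Alternatives were DESeq2 1.42.0 (size factors, test), limma-voom 3.58.1, upper-quartile factors, other filters, thinning to 13114711 counts, no organelle genes, a replicate block, leaving out each library, and offsets for GC content and length.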

Additional observations from a re-analysis of the deposited data

How the results depend on the processing

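None of 228 called genes in the lists and families, the ribosomal family left out, changed sign under the alternatives run, and 119 of them kept their call without each library in turn. Against 1276 genes called higher in S, 545 genes called lower in S, 534 S peak genes and 451 S dip genes, limma-voom gave 3586, 2270, 1152 and 1081. The GC and length offsets, added after seeing the data, gave 390, 274, 123 and 223. Lower calls and dips were 986 and 795 with upper-quartile factors and 1173 and 870 with the DESeq2 test, and lower calls were 819 with the stricter filter. Requiring S against G1 and S against G2M each to pass gave 130 peaks and 223 dips. Leaving out each library in turn gave 539 to 2580 higher, 162 to 2032 lower, 213 to 1884 peaks and 147 to 1774 dips, with the highest values without S replicate 2 and the lowest without G2M replicate 2. The cause was not tested, except that leaving out a library leaves fewer samples. Without an S library, a peak or dip also rests on the remaining S library alone, so those counts follow a looser rule. A replicate block gave 1063, 456, 420 and 374. Deviations of same-numbered libraries correlated at -0.046, 0.031 and -0.065 between gates, which cannot settle whether they were paired. The labels give them only a shared number, and the main fit left them unpaired. Of the 88 called genes chosen by the naming rule, 40 kept their call without each library in turn, 78 with the replicate block and 60 with the offsets. The S gate's replicate 2 had 13114711 counts, where 3 counts are worth 0.229 CPM, which limits what can be said of genes near that level.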

Other observations

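Gene families not in the lists were grouped by words in the annotation's product names after values were seen, so their counts are descriptions with no test. Of 146 tested genes with auxin, YUCCA, WAG or indole-3-acetic in the product name, 19 were called higher (13.0%, 11 of them as peaks) and none lower by edgeR, against 5.09% of all genes called higher, with 35 at an unadjusted p under 0.05. Besides BRU6, YUC9 and WAG2 they include YUC3, the response factors ARF16, ARF19 and MP, which were S peaks, and the efflux carrier PIN4. MP read 67.1 and 67.6 CPM in G1, 134 and 133 CPM in S and 107 and 103 CPM in G2M, with both S libraries highest. IAA1, IAA2 and IAA7, repressors of auxin response, were called higher but lay lower in S than in G1, with S minus G1 differences of -0.14, -0.35 and -0.82. ARF19 was not called without S replicate 1 (adjusted p = 0.056), PIN4 without G2M replicate 1 (adjusted p = 0.093) and IAA7 without any library other than S replicate 2 (adjusted p from 0.087 to 0.16), with a contrast of 0.29 in place of 0.45 without S replicate 1. Of the 146 genes, DESeq2 and limma-voom called 2 and 5 lower, and 8 were called lower without S replicate 2. The number called higher was 12 without G2M replicate 1 and 10 with the GC and length offsets.

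Arabinogalactan proteins, glycoproteins of the cell surface, had 9 of 48 genes called lower (18.8%, against 2.17% of all genes, 7 of them as dips) and none higher. AGP12 read 44.4 and 48.3 CPM in G1, 11.6 and 6.27 CPM in S and 11.8 and 15.6 CPM in G2M, lowest in S. AGP14 read 14.8 and 16.03 CPM in G1, 7.32 and 7.999 CPM in S and 16.2 and 18.5 CPM in G2M, so that it came back in G2M. Only 5 were called when G1 replicate 2, G2M replicate 1 or G2M replicate 2 was left out and with the offsets, and 14 when S replicate 2 was. Of 318 tested genes whose product is named a ribosomal protein, organelle proteins left out as far as names tell, 61 were called lower (19.2%) and 1 higher, while 241 passed as lower in S than in G2M. Leaving out S replicate 2 raised the 61 to 149. Leaving out the first or the second G1 library lowered it to 35 or 14, S replicate 1 to 40, and the first or the second G2M library to 21 or 15. It was 14 when the offsets were used.

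ABC transporters had 11 of 96 genes called higher (11.5%) and 2 lower, a share of 2.08% near the 2.17% of all genes. C1 domain proteins had 13 of 138 higher (9.42%) and none lower. Resistance proteins of the NBS-LRR class had 9 of 146 higher, a share of 6.16% near the 5.09% of all genes, and none lower. Of C1 domain and NBS-LRR genes, 8 and 4 were called lower without S replicate 2, and 10 and 6 with limma-voom. Counts of genes called higher were 5, 5 and 4 with the GC and length offsets, and 24, 31 and 24 without S replicate 2. Their lowest counts when 1 library was left out were 6 without G2M replicate 1, 4 without G2M replicate 2 and 2 without G1 replicate 2 or G2M replicate 2.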
